A study of Mus musculus with 6 samples.

Results

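The adult globin genes of the mouse were followed across tissues through the cut 5′ ends of their RNAs. Members were the RNAs with tags in the adult beta globin region of mm9 chromosome 7, minus strand, and in the alpha globin region of chromosome 11, plus strand, and these regions were chosen by their tag levels in the same libraries, so the levels below are a description and support nothing by themselves. The 4 genes, a pair of beta globins and a pair of alpha globins, held 5712 of the 839877 uniquely listed tags of the 6 libraries, or 0.680%. They held 309 of the 449338 distinct ends. Neither region held a tag on the opposite strand, and 1 spleen tag in the alpha region fell at none of the 4 genes.

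The libraries were made by parallel analysis of RNA ends (PARE), in which an adaptor is ligated to polyadenylated RNAs that carry a 5′ monophosphate and a short tag next to the adaptor is sequenced. Spleen, lung, liver, kidney, brain and ovary of adult mice of BALB-c background gave 1 library each, with no treatment and no altered gene in the labels. No tissue had a replicate, so no test between tissues was made, and every interval below is a 95% interval for counting error alone. How many animals were pooled, and whether blood was flushed from the organs, is not given in the sources used here.

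Haemoglobin, the oxygen carrier of red blood cells, is built from alpha and beta globin chains. Mammalian red cells lose their nucleus but young ones, the reticulocytes, still hold globin RNA, which is among the most stable RNAs known and is taken into every organ with the blood. The mouse spleen also forms red cells in its red pulp and removes old ones. A capped RNA is not ligated in PARE, so a tag counts an RNA that was cut, decapped or partly degraded, and the number of tags is not the number of RNAs.

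The beta globin loci were named through their first bases. Tags at the start of the first locus matched 49 bases of the RefSeq start of Hbb-bs (GRCm38.p6), and those of the second matched 48 bases of Hbb-bt. RefSeq keeps Hbb-b1 and Hbb-b2 as symbols of their own, and their starts were not compared. The mm9 reference comes from C57BL/6J, which is known to carry the single (s) beta globin haplotype, whereas BALB/c is known to carry the diffuse (d) one. RNA of the BALB/c alleles was therefore seen only where its tags aligned to the reference alleles, and what was lost in this way was not tested. The alpha copies were named by their order on the chromosome, Hba-a1 before Hba-a2, as in RefSeq.

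Hbb-bs had 4649 unique tags on 163 ends between 110975054 and 110976441 of mm9 chromosome 7. Hbb-bt had 737 unique tags on 115 ends between 110961057 and 110962435. Hba-a1 had 147 unique tags on 14 ends and Hba-a2 had 179 on 17 ends, on chromosome 11. A further 49 tags of the 4 genes were listed at 2 locations, 36 of them of Hba-a1, and were kept apart. All 36 were also listed on the minus strand of chromosome 17, where RefSeq places an alpha globin pseudogene, Hba-ps4; whether the locations coincide was not tested.

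The alpha copies could be read only in the coding stretch around the single base in which they differ, and that stretch is shown for both, 5′ to 3′, with the differing base in capitals (mm9, plus strand, chr11:32184324-32184363 and chr11:32197141-32197180).
Hba-a1: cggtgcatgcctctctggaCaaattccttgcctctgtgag
Hba-a2: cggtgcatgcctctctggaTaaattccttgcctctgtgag
The difference is C20T, with Hba-a1's base first and positions counted from 1 at the first base of the stretch. It is the third base of an aspartate codon in the known reading frame and leaves the amino acid unchanged. All 362 alpha globin tags, those at 2 locations included, held this base.

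The ends on which the beta globin results turn are shown as the first 20 bases of their tags, 5′ to 3′, from the minus strand of chromosome 7. Capitals mark the first base of the RNA fragment in the strongest ends and the leader end, and the base that differs from Hbb-bt in the coding end.
Hbb-bs strongest end, 3′ UTR, chr7:110975073-110975092: Ttgaaaatctgtcttctgac
Hbb-bt strongest end, 3′ UTR, chr7:110961039-110961058: Tgatatttactgtcatctca
Hbb-bs strongest coding end, chr7:110975200-110975219: tggctggagtggcCgctgcc
Hbb-bs strongest leader end, 5′ UTR, chr7:110976412-110976431: Ctgacatagttgtgttgact

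The libraries differed in depth and in where their tags lie. Unique tags ranged from 29213 in ovary to 493121 in lung, with 42939 in spleen, and levels are given as tags per 1000000 unique tags (CPM). The spleen library stood apart from the others: the poly(A) signal AATAAA, searched on the sense strand in the first 20 bases, was in 38.4% of its tags outside the globin regions, against 2.28% to 9.69% in the other 5 libraries. It also had the most tags listed at 2 locations, 17.2% against 8.62% to 11.2%. Marker genes could be looked up only where a tag matched the first 50 bases after a RefSeq start. The kidney markers Kap and Gpx3 had 999 such tags in kidney, 135 in lung and at most 3 in each other library, while no marker of the other 5 tissues had any. Of 36 erythroid genes other than the globins only Alad, an enzyme of haem synthesis, had such a tag (2 in all), and none of the 6 embryonic and minor globins had one. Red cell content was therefore not measured apart from the globins, and fewer red cells in a tissue and fewer cut globin RNAs per cell cannot be told apart.

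Beta globin ends had their highest levels in spleen and lung and lower ones in the other tissues. The 2 beta genes together had 814 tags in spleen, 18957 CPM (17677 to 20305), and 4307 tags in lung, 8734 CPM (8475 to 8999). Liver had 74 tags, 937 CPM (736 to 1177), kidney 149 tags, 918 CPM (777 to 1078), brain 30 tags, 899 CPM (606 to 1283), and ovary 12 tags, 411 CPM (212 to 718). The window that holds most of Hbb-bs ranked 2 of 12051 windows of 2 kb in spleen, 6 of 53953 in lung, 58 of 14468 in brain, 65 of 32236 in kidney, 137 of 14404 in liver and 150 of 13857 in ovary, so it was among the most tagged windows of every library.

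In the order of levels, spleen stood 2.17-fold above lung (2.01 to 2.34) and lung 9.32-fold above liver (7.41 to 11.9). Liver over kidney was 1.02 (0.762 to 1.36) and kidney over brain 1.02 (0.687 to 1.57), so these neighbours did not differ beyond counting error in CPM. Kidney over brain was 2.04 with scaling by the trimmed mean of M values (TMM), outside that interval. With distinct ends, liver over kidney was 1.81 and kidney over brain 0.704. Brain was 2.19-fold above ovary (1.09 to 4.69). The lead of spleen over lung depended on the scaling, since TMM gave a ratio of 1.04 (0.960 to 1.12). It also depended on the transcript part, since it was 0.985 (0.869 to 1.11) when ends from 30 nt before the poly(A) signal onward were left out. This cut was chosen after seeing the data and was made in the globins alone, with the library totals left whole. Tags of other RNAs near a poly(A) signal stayed in the totals. AATAAA was in 38.4% of the other tags in spleen and 8.83% in lung, so part of the fall was given by construction.

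**Figure D1:**
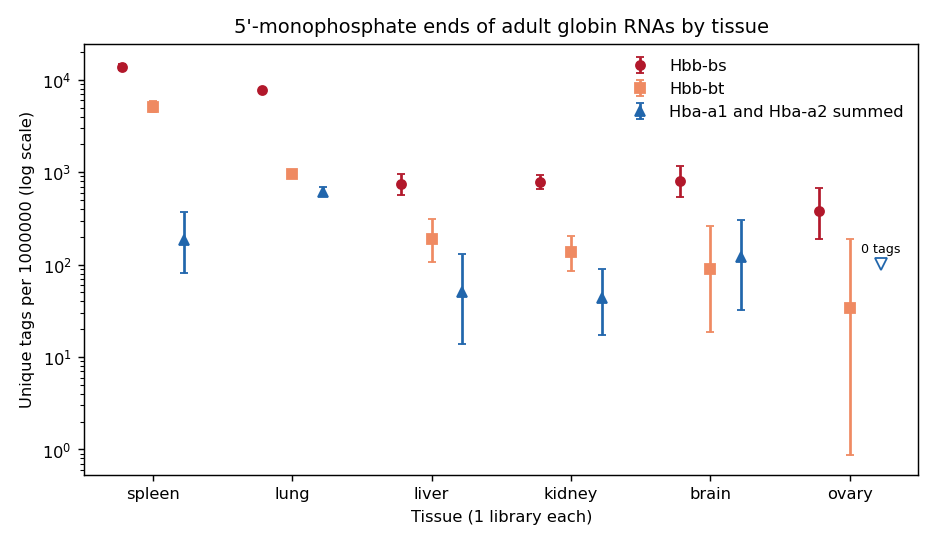
Unique tags per 1000000 (CPM, log axis) in each tissue for Hbb-bs, Hbb-bt and the summed alpha globins, with 95% Poisson intervals from 1 library per tissue. Both beta genes were highest in spleen in CPM, although TMM puts Hbb-bs higher in lung, and the alpha genes were highest in lung; the open triangle marks the 103 CPM that 0 alpha tags in ovary allow.

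Hbb-bs, the more tagged beta gene, had 594 tags in spleen, 13834 CPM (12743 to 14992), and 3831 in lung, 7769 CPM (7525 to 8019). Its levels in liver (59 tags, 747 CPM), kidney (127 tags, 783 CPM) and brain (27 tags, 809 CPM) overlapped in their intervals, and ovary had 11 tags, 377 CPM. Spleen over lung was 1.78 (1.63 to 1.94) for Hbb-bs, but 0.850 (0.778 to 0.927) with TMM, which turns its direction.

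Hbb-bt had 220 tags in spleen, 5124 CPM (4469 to 5847), and 476 in lung, 965 CPM (881 to 1056). Liver had 15 tags, 190.0 CPM, kidney 22 tags, 136 CPM, brain 3 tags, 89.9 CPM, and ovary 1 tag, 34.2 CPM. Spleen over lung was 5.31 (4.50 to 6.24) for Hbb-bt and 2.53 (2.15 to 2.98) with TMM, and 2.72 (2.12 to 3.45) without the ends from 30 nt before the poly(A) signal. Hbb-bt was thus higher in spleen under each of these settings.

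The share of Hbb-bt among beta globin tags, with tagged 3′ stretches of 179 nt in Hbb-bt and 192 nt in Hbb-bs, was 27.0% in spleen (24.0 to 30.2) and 11.1% in lung (10.1 to 12.0). These intervals do not overlap. The share was 20.3% in liver (11.8 to 31.2), 14.8% in kidney (9.49 to 21.5), 10% in brain (2.11 to 26.5) and 8.33% in ovary (0.211 to 38.5), each overlapping the lung interval. The intervals of liver, brain and ovary overlapped that of spleen as well.

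The alpha globins had 8 tags in spleen, 186 CPM (80.4 to 367), and 303 tags in lung, 614 CPM (547 to 688). Kidney had 7 tags, 43.1 CPM, liver 4 tags, 50.7 CPM, and brain 4 tags, 120 CPM. Ovary had 0 tags, which allows up to 103 CPM. Spleen over lung was 0.303 (0.130 to 0.605) and 0.145 with TMM, although counting each distinct end once gave 1.71. Of the 4 genes, 1 (Hbb-bt) had a spleen level at least 2-fold above lung and the 2 alpha genes had one at least 2-fold below, against 17.2% and 47.1% of the 4475 windows of 2 kb with at least 20 tags in the pair. The alpha calls rest on 5 spleen tags of Hba-a1 and 3 of Hba-a2. For Hba-a1 the intervals of spleen (37.8 to 272 CPM) and lung (233 to 328 CPM) overlapped. With TMM the shares of windows were 7.22% higher and 66.0% lower. Against these shares the counts show nothing particular to the globins.

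Alpha and beta totals are not on one scale, since few alpha tags can be assigned to a copy. A 20 nt tag tells the alpha copies apart at 20 start positions each, against 36 in the coding stretch before the stop of each beta gene. Per such start, lung had 14.8 tags of Hbb-bs (13.5 to 16.1), 0.861 of Hbb-bt (0.585 to 1.22), 6.85 of Hba-a1 (5.75 to 8.10) and 8.30 of Hba-a2 (7.09 to 9.66). Unique lung tags of Hba-a1 fell on only 14 of its 20 starts, although the 6.85 was taken over all 20. With the tags at 2 locations Hba-a1 had 8.60 per start. Spleen had 0.278 of Hbb-bs, 0.0556 of Hbb-bt, 0.250 of Hba-a1 and 0.150 of Hba-a2.

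Within lung the alpha copies had similar totals. Hba-a1 had 137 unique tags and Hba-a2 had 166, a ratio of 0.825 (0.653 to 1.04), or 172 against 166, a ratio of 1.04 (0.832 to 1.29), once tags at 2 locations were added. Their ends were placed differently, although the surrounding 40 bases are alike but for 1. The shares and counts by end that follow include tags at 2 locations, 35 in lung for Hba-a1 and 0 for Hba-a2. Unique lung tags of Hba-a1 fell on only 14 of the 20 starts. Whether the 35 tags came from Hba-a1 was not tested. They were not counted by end, so all 9 of the Hba-a1 tags at the differing base may be among them. An end exactly at the differing base made up 9 of 172 lung tags of Hba-a1, 5.23% (2.42 to 9.70), and 48 of 166 of Hba-a2, 28.9% (22.2 to 36.4). The end 12 nt before it made up 44 tags of Hba-a1, 25.6% (19.2 to 32.8), and 20 of Hba-a2, 12.0% (7.52 to 18.0). Across the 20 starts the lung counts of the copies had a Pearson r of 0.43 and a Spearman rho of 0.75, as a description of positions that share a library and a sequence.

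**Figure D2:**
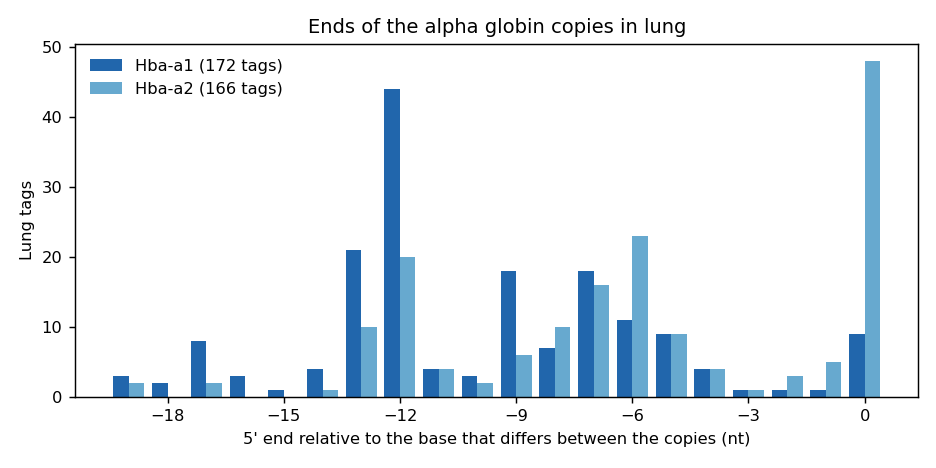
Lung tags of Hba-a1 and Hba-a2 by the distance of their 5′ end from the base that differs between the copies, tags at 2 locations included. Hba-a1 peaked 12 nt before that base with 44 tags, Hba-a2 at the base itself with 48.

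With tags at 2 locations included, the 5 strongest ends of Hba-a1 lay 13, 12, 9, 7 and 6 nt before the differing base. They held 25, 45, 18, 20 and 11 tags over the 6 libraries. Lung gave all of the tags at 2 of them and at least 18 of the tags at the 3 others. How many of the Hba-a1 tags at each end were listed at 2 locations was not counted, so the ranking may differ in unique tags. The 5 strongest of Hba-a2 lay at the base and 6, 7, 12 and 13 nt before it, with 50, 27, 17, 20 and 10 tags. In the alpha reading frame, 163 of 303 unique lung tags began at the third base of a codon, 53.8% (48.0 to 59.5). This share rested on the strongest end of each copy, and was 33.6% without those ends. In the coding end of Hbb-bs, 317 of 533 lung tags began at the second base of a codon, 59.5% (55.2 to 63.7), and 104 of them lay at 1 end. With each distinct end counted once, the share at the third base was 29.0% for the alpha genes and 32.1% for Hbb-bs. The excess of the alpha genes at the third base thus did not hold across these settings. The share of Hbb-bs at the second base was not recomputed under other settings, so whether it holds was not tested.

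The positions of the beta globin ends followed from tags that cover the 3′ part of both RNAs. The stop codon of Hbb-bs starts at 110975181 and its AATAAA poly(A) signal 110 nt later, at 110975071. For Hbb-bt the stop starts at 110961172 and the signal 108 nt later, at 110961064. The stop was taken as the first stop triplet in the tagged stretch and was not checked against an annotation of mm9. Ends were grouped into the leader, the end of the coding sequence, the 3′ UTR up to 30 nt before the signal, and the last stretch from there on. No unique tag began in the coding sequence more than 45 nt before the stop in Hbb-bs, or 44 nt in Hbb-bt. Levels and shares of the beta genes therefore cover the tagged parts alone and not the whole RNA. Whether tags further upstream were lost because the beta genes are alike there was not tested.

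In spleen most beta globin tags lay in the last stretch, although with distinct ends it held 34.8% of the Hbb-bs ends and the 3′ UTR before it 58.7%. For Hbb-bs this was 396 of 594 tags, 66.7% (62.7 to 70.5), in spleen, against 889 of 3831, 23.2% (21.9 to 24.6), in lung. The share was 32.2% in liver (20.6 to 45.6), 18.9% in kidney (12.5 to 26.8), 22.2% in brain (8.62 to 42.3) and 27.3% in ovary (6.02 to 61.0). For Hbb-bt the last stretch held 135 of 220 tags, 61.4% (54.6 to 67.8), in spleen and 117 of 476, 24.6% (20.8 to 28.7), in lung. Liver, with 10 of 15 Hbb-bt tags there, 66.7% (38.4 to 88.2), was nearer to spleen, and kidney, with 3 of 22, 13.6% (2.91 to 34.9), to lung.

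**Figure D3:**
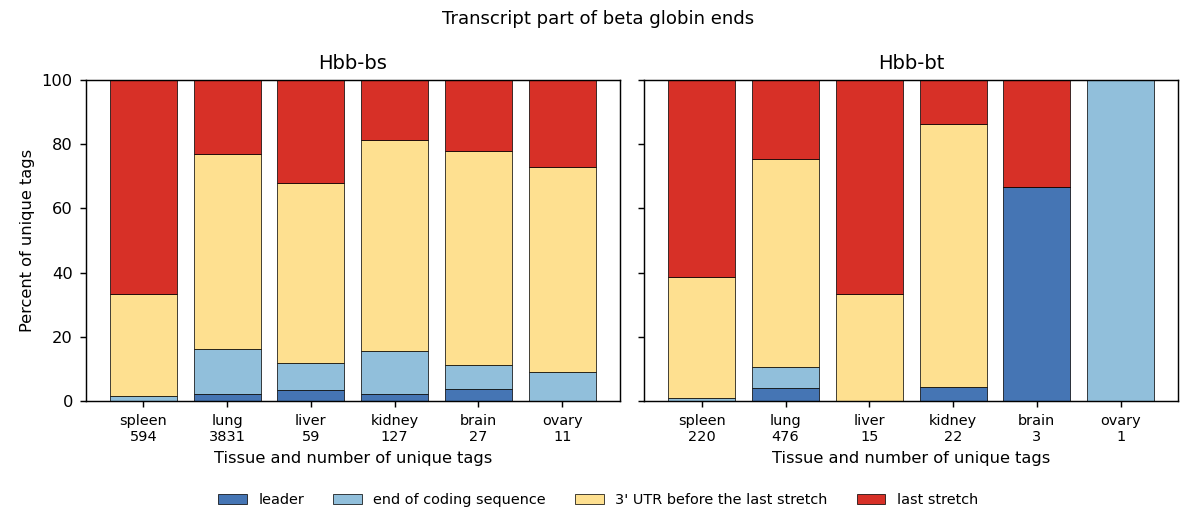
Percent of unique tags of Hbb-bs and Hbb-bt in each transcript part by tissue, with the number of tags under each bar. The coding sequence upstream of its tagged end had no unique tag, so the shares do not cover the whole RNA. The last stretch holds 66.7% of Hbb-bs tags in spleen and 23.2% in lung; bars of Hbb-bt in brain and ovary rest on 3 and 1 tags.

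The spleen over lung ratio of Hbb-bs climbed along the RNA. No leader tag was seen in spleen, against 86 in lung, so the leader level was at least 2.50-fold lower in spleen when 0 tags are taken as 3, and the interval of the ratio reached up to 0.503. At the end of the coding sequence the ratio was 0.215 (0.103 to 0.399), in the 3′ UTR before the last stretch 0.929 (0.797 to 1.08), and in the last stretch 5.12 (4.53 to 5.77). For Hbb-bt the ratios of these 3 parts were 0.741 (0.0859 to 2.91), 3.09 (2.40 to 3.96) and 13.3 (10.3 to 17.1). The alpha ratio of 0.303, measured in coding sequence alone, stands beside the 0.215 of Hbb-bs in its coding end.

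The median end of Hbb-bs lay 88 nt after the first base of the stop in spleen and 40 nt after it in lung, and 46, 30, 46 and 44 nt after it in liver, kidney, brain and ovary. The median end of Hbb-bt lay 99 nt after it in spleen and 65 nt in lung. Both beta genes had spleen medians at least 20 nt nearer the 3′ end than lung, and 51.8% of the 114 windows with at least 30 tags in each library did so. Over the 112 such windows outside the globins the median difference was 21 nt and the quartiles 0 and 63.5 nt, and 40 of them had a difference at least as large as the 48 nt of Hbb-bs. The displacement was thus shared with much of the spleen library. AATAAA was in 174 of the 823 spleen tags in the globin regions, 21.1% (18.4 to 24.1). In lung it was in 154 of 4610 such tags, 3.34% (2.84 to 3.90). Both shares were below those of the other tags, 38.4% in spleen and 8.83% in lung. What sets the spleen library apart was not tested.

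**Figure D4:**
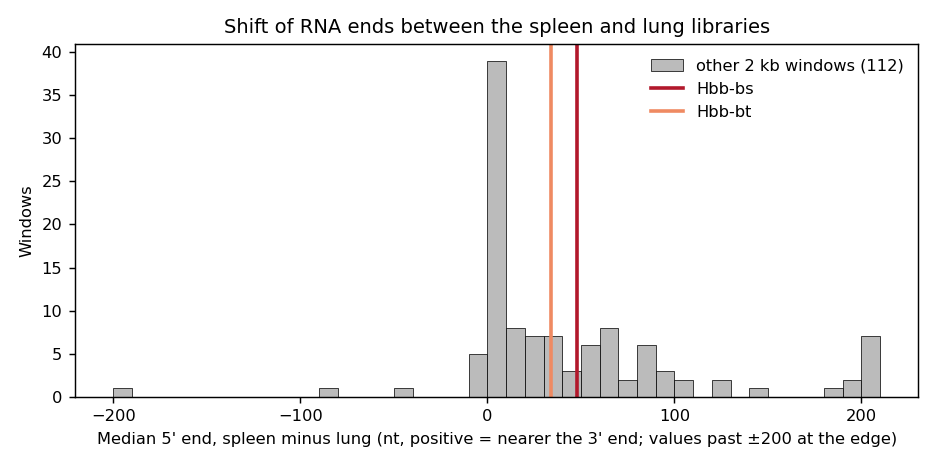
Difference of the median 5′ end, spleen minus lung, in 2 kb windows with at least 30 tags in both libraries (positive is nearer the 3′ end). Hbb-bs at 48 nt and Hbb-bt at 34 nt lie inside the spread of the other 112 windows, whose median is 21 nt.

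Lung, by far the deepest library, had Hbb-bs tags at 157 of the gene's 163 ends, so overlap with it was nearly given. Of the Hbb-bs tags, 98.0% in spleen (96.5 to 99.0), 98.3% in liver and all 127, 27 and 11 in kidney, brain and ovary lay at ends also found in lung. Of the 163 ends, 56 were found in 1 library alone. The strongest end of Hbb-bs, whose sequence opens the list of beta ends above, lies 89 nt after the stop and 21 nt before the poly(A) signal. It had 79 tags in spleen, 277 in lung, 2 in liver, 10 in kidney, 2 in brain and 1 in ovary, and was 1 of 3 Hbb-bs ends found in all 6 libraries. Its share of the gene's tags was 13.3% in spleen (10.7 to 16.3) and 7.23% in lung (6.43 to 8.10). Its neighbour 1 nt upstream had 48 tags in spleen and 126 in lung.

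A second group of Hbb-bs ends lay at the stop codon and was noticed in the profiles of the ends. From 0 to 12 nt after the first base of the stop, Hbb-bs had 28 of 594 tags in spleen, 4.71% (3.15 to 6.74), and 873 of 3831 in lung, 22.8% (21.5 to 24.1). The other 3 of the 5 strongest ends, 3, 4 and 5 nt after it, were part of this group, with 4 tags each in spleen and 134, 130 and 144 in lung. The group held 18.6% of the Hbb-bs tags in liver, 27.6% in kidney, 33.3% in brain and 18.2% in ovary. Hbb-bt had 0 of 220 tags there in spleen, which allows up to 1.36%, and 14 of 476 in lung, 2.94% (1.62 to 4.89). Within lung the intervals of the beta genes did not overlap. The group was chosen after seeing the Hbb-bs ends, so a higher share in Hbb-bs was in part given by that choice. Whether Hbb-bt tags of BALB/c alleles were lost here in alignment was not tested.

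Further upstream, 1 coding end of Hbb-bs, 38 nt before the stop and shown above, had 104 tags in lung, 2.71% of the gene's lung tags (2.22 to 3.28), and 7 in kidney, 5.51% (2.24 to 11.03). It had none in spleen, which allows up to 0.505%, nor in liver, brain and ovary, where 0 tags allow up to 5.08%, 11.1% and 27.3%. In the leader the 86 lung tags of Hbb-bs lay on 26 ends, with the strongest at base 12 from the RefSeq start (10 tags in lung and 2 in kidney). Only 2 lung tags lay at the first tagged base, which is base 2. Hbb-bt had 23 leader tags in all, 20 of them in lung.

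**Figure D5:**
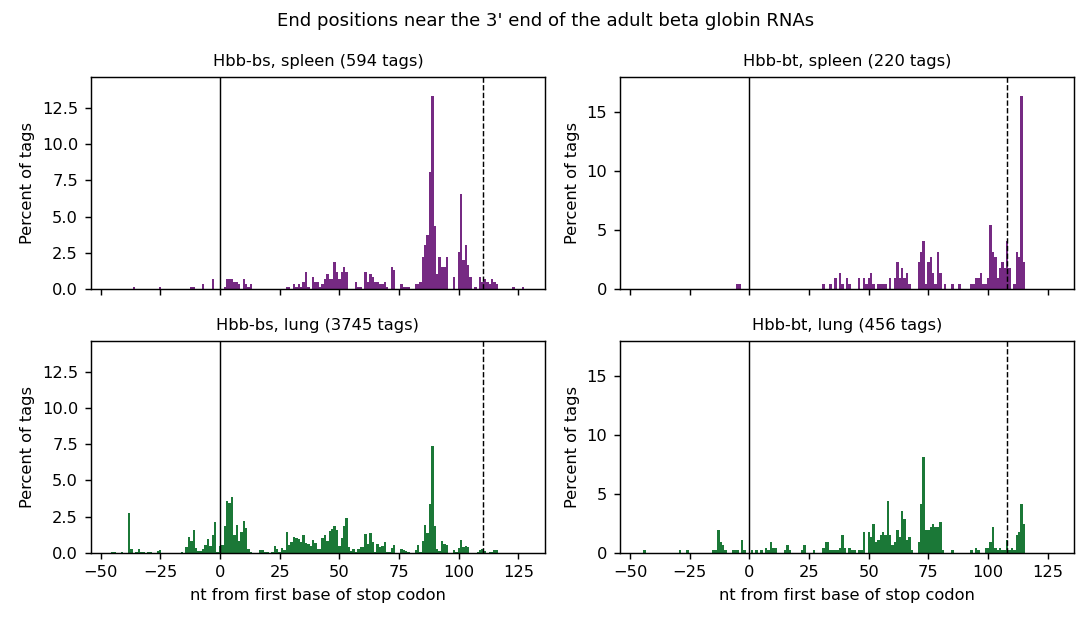
Percent of unique tags at each 5′ end of Hbb-bs and Hbb-bt, by nt from the first base of the stop codon (solid line), with the poly(A) signal as a dashed line and the leader left out. Spleen ends of Hbb-bs gather 89 nt after the stop, whereas lung shows a further group just after the stop that Hbb-bt has little of.

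Of Hbb-bt, the strongest end lay 114 nt after the stop and 6 nt past the first base of AATAAA. It had 36 tags in spleen, 16.4% of the gene's spleen tags (11.7 to 21.9), and 19 in lung, 3.99% (2.42 to 6.16). Liver had 3, brain 1, and kidney and ovary 0. The next ends, 73 and 72 nt after the stop, had 9 and 7 tags in spleen and 37 and 19 in lung. The other 2 of the 5, at 64 and 58 nt, had 4 and 0 tags in spleen and 16 and 20 in lung. Kidney's strongest end lay 71 nt after the stop with 4 tags.

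Other regions were ranked by how closely they followed the globin pattern. Among 2030 windows with at least 60 tags, the 5 with the highest Pearson correlation of log2(CPM + 1) with the summed globins over the 6 libraries had r of 0.95 to 0.97. They were picked as the highest of 2030 over only 6 libraries, so such values were largely given by the selection. The closest, on the plus strand of chromosome 5 from 91198001 (mm9), had 11 tags in spleen, 76 in lung and 0 in the other 4 libraries. On chromosome 12, minus strand, the window from 114656001 had 109 tags in spleen and 172 in lung, and between 1 and 7 in the others. The others were on chromosome 8, minus strand, from 86246001, chromosome 2, minus strand, from 57984001, and chromosome 9, plus strand, from 32564001. None held a tag that matched a RefSeq start, so their genes were not named.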

How the data were processed

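Tags of 5′-monophosphate RNA ends were measured in 6 libraries, 1 per tissue. Tags were aligned with Bowtie to mm9, per the submitters' processing notes; no version or mismatch setting is given in the sources used here. The authors deposited 1 line per tag sequence with its location and read count, the count being written after the sequence, and a score that is a display density and was not used. Sequences listed at 2 locations of a library were kept apart. The 5′ end is the first base of a tag in its own strand, and minus strand sequences were complemented. Counts were scaled to 1000000 unique tags (CPM). Intervals are exact Poisson for levels, exact conditional binomial for ratios and Clopper-Pearson for shares, at 95%, and cover counting error only, since PCR reads carry no molecular identifiers. A count of 0 was taken to allow 3. No genome or annotation of mm9 was used, so gene lists could not be counted and windows of 2 kb took their place. Named ends are the 5 with the most tags of each gene and the strongest in each library, and like windows the 5 with the highest correlation. The members, lists and thresholds were chosen with earlier results of these data known. TMM and the ratio intervals were checked on simulated data. Python 3.11.15, NumPy 2.4.6 and SciPy 1.17.1 were used. Other scalings, distinct ends, leaving out the strongest ends and adding tags at 2 locations were tried.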

Additional observations from a re-analysis of the deposited data

How the results depend on the processing

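Of the recomputed values, 52 stayed within the counting interval of the main value (for the shifts of ends, within 1.5 times of it), 36 left it and 2 turned a ratio whose interval excluded 1. Apart from these, spleen over lung turned to 0.850 for Hbb-bs with TMM and to 1.71 for the alpha genes with distinct ends. With all listed tags, beta globin levels were 15829 CPM in spleen and 7873 in lung, and spleen over lung was 2.01. With TMM, levels were 15979 CPM in spleen, 15419 in lung, 1254 in liver, 1123 in kidney and 549 in brain. The ratios were then 1.04 for spleen over lung, 12.3 for lung over liver and 2.04 for kidney over brain. With each distinct end counted once, levels were 6034 per 1000000 distinct ends in spleen, 967 in lung and 629 in kidney. Spleen over lung was then 6.24, liver over kidney 1.81, and lung over liver turned to 0.849. By construction this measure saturates at strong loci of deep libraries. Without the strongest end of each gene, spleen was at 16279 CPM and lung at 8134 CPM. Leaving out the last stretch of the beta genes, chosen after seeing the data and with the library totals left whole, turned spleen over lung to 0.985. The alpha over beta ratio was 0.00983 in spleen, 0.0704 in lung and 0.0470 in kidney, and 0.0325, 0.118 and 0.103 with distinct ends. It was 0.0526 in lung without the strongest ends. The strongest Hbb-bs end with tags within 1 nt held 25.8% in spleen and 12.3% in lung. With distinct ends, Hbb-bs shares in spleen were 6.52% for the end of coding, 58.7% for the 3′ UTR before the last stretch and 34.8% for the last stretch, and in lung 16.6% for the leader, 17.8%, 47.1% and 18.5%. The share at the third codon base in lung was 29.0% with distinct ends and 33.6% without the strongest ends for the alpha genes, and 21.2%, 32.1% and 26.3% for Hbb-bs in the main setting, with distinct ends and without the strongest ends. The spleen minus lung median of Hbb-bs was 21 nt with distinct ends. The share of windows shifted by at least 20 nt ranged from 51.8% to 66.7% over settings chosen after seeing the data. The cause of these changes was otherwise not tested. The counts of listed erythroid genes and their alternatives were not run, since no annotation of mm9 was used. Depth limits brain and ovary most, where 1 tag is worth 30.0 and 34.2 CPM. No paired analysis was possible because each tissue has 1 library.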

Other observations

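Tags of the 4 genes seldom departed from the majority sequence of their position: 97.3% of Hbb-bs tags, 98.1% of Hbb-bt tags, 97.3% of Hba-a1 tags and 97.8% of Hba-a2 tags were identical to it over their whole length. Only tags aligned to mm9 were listed and the majority sequence came from the same tags, so high shares were largely given in advance. The 13 beta globin tags listed at 2 locations had their second locations on 6 chromosomes, with 7 of the Hbb-bs tags on the plus strand of chromosome 3.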
